A study of Mus musculus with 4 samples.

Results

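Cholesterol and fatty acid synthesis genes were described as a group of 34 named genes: 18 of the mevalonate and sterol pathway, 6 SREBP regulators with a sterol carrier, and 10 of fatty acid synthesis. Each gene's value came from its brightest probe set, by mean over the 4 arrays, of those annotated to no other gene. This gave a value for 33 of the 34, out of 18193 genes on the array with a value. Acat2, the cytosolic thiolase that starts the mevalonate pathway, had no probe set of this kind and has no value here, so 17 sterol pathway genes are described.

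The samples were blood-forming stem cells of the mouse (HSC), isolated by flow sorting as KLS CD48- CD150+ cells. In the Rb family deficient group, with genotype Rb -/- p130 -/- p107-/-, recombination had been started in adult mice by tamoxifen and the cells were taken 2 weeks later. The wild type group has the genotype label Rb +/+ p130 +/+ p107-/-, so p107 was absent by label in both groups and the groups differed by label in Rb and p130. The labels give the same tamoxifen protocol for both. Each group had 2 pools, each pool came from 3 mice, and each pool was hybridised to 1 Affymetrix array. The Cre driver, and the age and sex of the mice, do not appear in the labels.

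Cells make cholesterol from acetyl-CoA through mevalonate, isoprenoid diphosphates, squalene and lanosterol. Most enzymes of this route, and many of fatty acid synthesis, are transcribed under the SREBP transcription factors. These are held in the endoplasmic reticulum by Scap and the Insig proteins when sterol is plentiful, and are cut free when it is scarce. The isoprenoid intermediates are also used to anchor small GTPases in membranes, and dividing cells need both sterols and fatty acids for new membrane.

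Facts about the arrays bear on all results. Values are log2 expression values as deposited, and the median over genes was 6.95 and 6.97 in deficient HSC and 7.02 and 7.02 in wild type HSC. Rb1, which encodes Rb, stood at 9.82 and 9.72 in deficient HSC and at 9.37 and 9.58 in wild type HSC, and so was not lower where the label gives Rb -/-. Rbl2 (p130) stood at 7.82 and 8.21 in deficient HSC and at 8.94 and 8.75 in wild type HSC, and Rbl1 (p107) at 5.35 and 5.42 against 5.92 and 6.77. Whether these probe sets lie within the deleted parts was not known here, so they do not check the labels. Of the HSC-associated markers, 14 of 14 with a value lay at or above the median level of all genes. Their differences were below 0 for 10 of the 14, with a median of -0.22. Of the 14, 4 were at least 1.5-fold lower and 1 at least 1.5-fold higher, against 3.03% and 1.84% of all genes. Those with the lowest p-values by limma were Procr (-0.85, SE 0.17), Mecom (-0.69, SE 0.16) and Ctnnal1, which was higher (0.75, SE 0.24). Markers of mature neutrophils, which the sort should leave out, were above 0 in the deficient minus wild type difference for 12 of 12 genes with a value (median 1.03), with a mean level of 11.18 and 10.33 in deficient HSC and 9.34 and 10.12 in wild type HSC. Markers of B cells (7 of 7), T and NK cells (7 of 7) and endothelial and stromal cells (8 of 8) were also above 0. Their medians were 0.29, 0.08 and 0.19, and most of these genes lay below the median level of all genes. Other cell types were divided, from 4 of 8 above 0 for megakaryocytes to 8 of 9 for granulocyte and monocyte progenitors. Those progenitor markers had a mean level of 8.79 and 9.87 in deficient HSC and 7.87 and 9.81 in wild type HSC. Mitotic genes were above 0 for 19 of 21. In 7 of the 21 both deficient pools were above both wild type pools, against 17% of all genes. Their median difference was 0.62 and 0.54 for deficient pools 1 and 2 against wild type pool 2. Against wild type pool 1 it was -0.03 and -0.05, with 12 and 14 of the 21 genes lower in the deficient pool. The 3' minus 5' signal of the Actb controls, a sign of RNA quality, was 3.13 and 2.95 in deficient HSC and 2.32 and 2.81 in wild type HSC, while that of the Gapdh controls overlapped, at 2.79 and 2.499 in deficient HSC and 2.40 and 2.58 in wild type HSC. The Y-linked gene Eif2s3y stood at 8.50 and 9.64 in deficient HSC and at 9.93 and 10.29 in wild type HSC. The part of any of these in the results below was not tested.

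Most members were slightly lower in deficient HSC, and none passed the test. The difference, deficient minus wild type, was below 0 for 24 of the 33 (72.7%), with a median of -0.17 on the log2 scale. Over all 18193 genes 50.8% were below 0 and the median difference was -0.00376. The members' differences ran from -0.61 for Lss to 0.28 for Hsd17b7. By limma, with Benjamini-Hochberg adjustment over all genes, 0 of the 33 passed an adjusted p of 0.05, as did 0% of all genes, and the members' adjusted p-values lay between 0.761 and 0.997. At an unadjusted p under 0.05 there was 1 member lower and 0 higher, against 4.04% of all genes lower and 2.19% higher (735 and 399 genes, or 530 and 601 after each array was centred on its median). The same member, Lss, was the only one at least 1.5-fold lower, against 3.03% of all genes, and 0 were at least 1.5-fold higher, against 1.84%. Those shares of members are near the background.

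Both deficient pools lay below both wild type pools for 13 of the 33 members (39.4%), against 18.5% of all genes, and above both for 0 members, against 17% of all genes. These shares also varied with signal level. Among the 9097 genes at or above the median level, 63.6% were below 0, with a median difference of -0.088, and 26.5% had both deficient pools below both wild type pools. The 29 members in that range had 20 below 0 (69.0%) and 9 with both deficient pools below (31.0%), shares near those of other genes at this level. The other 4 members, Mvd, Fdps, Scd1 and Me1, were dimmer, and in all 4 both deficient pools were below. The share so placed was 18.5% over genes of all levels, which include the brighter genes at 26.5%. It is therefore lower among dimmer genes, over which it was not counted. In bulk RNA of pooled cells, fewer cells that express a gene and less RNA per cell cannot be told apart.

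**Figure D1:**
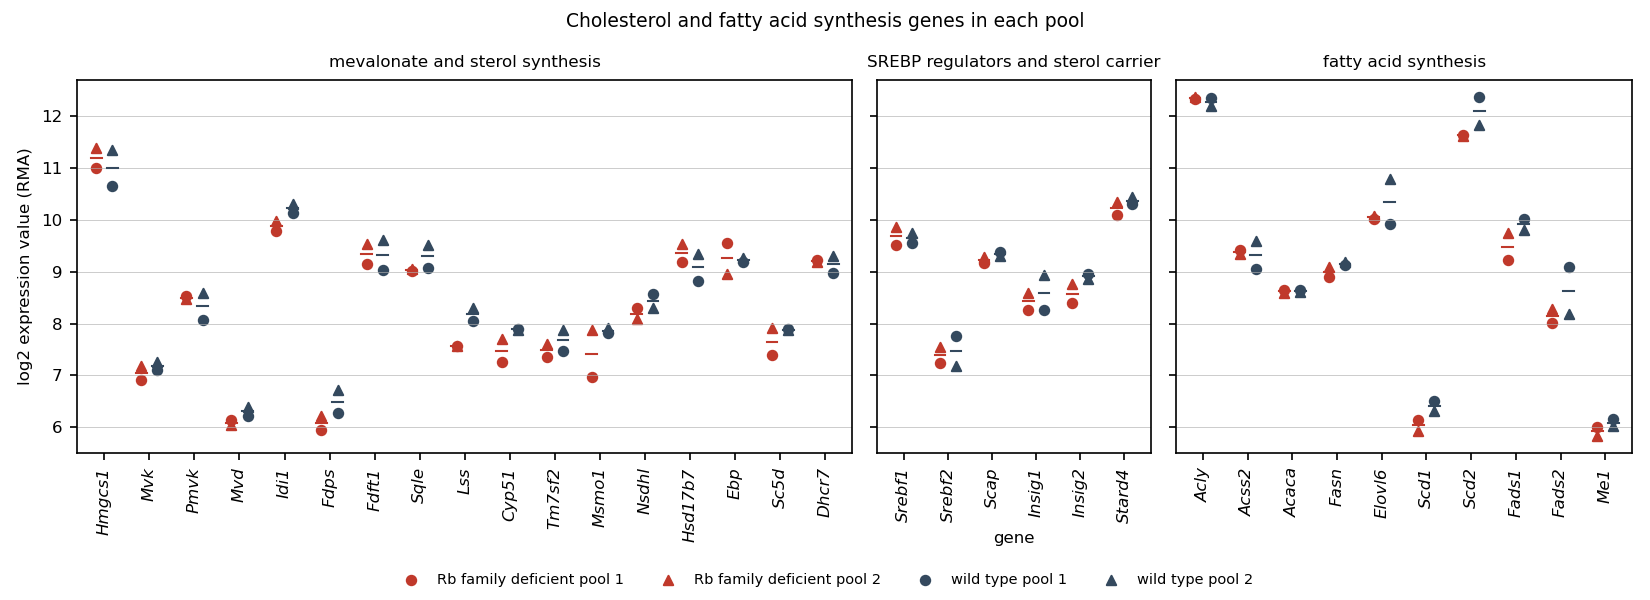
Log2 expression value (vertical axis) of each of the 33 members in each pool, red for Rb family deficient and dark blue for wild type, circles for pool 1 and triangles for pool 2, with a bar at each group's mean. The symbols of the groups lie close together for most genes, and Lss, where the deficient pools stood at 7.57 and 7.56 and the wild type pools at 8.06 and 8.30, is the clearest gap.

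The steps from acetyl units to farnesyl diphosphate showed small differences of both signs. Hmgcs1 encodes the synthase that makes HMG-CoA. Its brightest probe set stood at 10.998 and 11.38 in deficient HSC and at 10.66 and 11.35 in wild type HSC, a difference of 0.18 (SE 0.28), and the groups overlapped because wild type pool 1 was the lowest and wild type pool 2 nearly the highest. Mevalonate kinase (Mvk) differed by -0.13 (SE 0.17) and phosphomevalonate kinase (Pmvk) by 0.17 (SE 0.21), with overlapping pools in each. Mvd, the decarboxylase that yields isopentenyl diphosphate, had values of 6.13 and 6.04 in deficient HSC and 6.22 and 6.40 in wild type HSC. These do not overlap, but the difference of -0.22 (SE 0.15) had a 95% interval of -0.60 to 0.16.

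Idi1 and Fdps, which isomerise isopentenyl diphosphate and join it into farnesyl diphosphate, were lower in both deficient pools. Idi1 stood at 9.78 and 9.98 in deficient HSC and at 10.14 and 10.30 in wild type HSC. The groups did not overlap, and the difference was -0.34 (SE 0.16, adjusted p by limma = 0.805). The other Idi1 probe set, with 9.64 and 9.66 in deficient HSC and 10.17 and 9.97 in wild type HSC, gave a similar value of -0.42 (SE 0.15). Fdps stood at 5.94 and 6.22 in deficient HSC and at 6.28 and 6.71 in wild type HSC, a difference of -0.42 (SE 0.21, adjusted p by limma = 0.813). Its lowest wild type pool was only just above its highest deficient pool, and the difference was -0.20 without wild type pool 2.

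The squalene to lanosterol steps held the largest difference of the group. Squalene synthase (Fdft1) differed by 0.015 (SE 0.25). Squalene epoxidase (Sqle) stood at 9.01 and 9.06 in deficient HSC and at 9.08 and 9.51 in wild type HSC, a difference of -0.26 (SE 0.19) set mostly by wild type pool 2, without which it was -0.048. Lanosterol synthase (Lss), which closes the sterol rings, stood at 7.57 and 7.56 in deficient HSC and at 8.06 and 8.30 in wild type HSC. It was 1.53-fold lower (log2 difference -0.61, SE 0.16, 95% interval -1.01 to -0.21, n = 2 pools per group), at an unadjusted limma p of 0.0107 and an adjusted p of 0.761. It was the only member whose interval left out 0. The name of this probe set holds an s, while its other probe sets have names with no added letter. Of those, the brighter one (mean level 6.20) gave 0.12 (SE 0.24) with overlapping pools. The dimmest (mean level 5.86) lay further below, at 4.77 and 5.84 in deficient HSC and 6.51 and 6.35 in wild type HSC (-1.12, SE 0.36).

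Of the enzymes that turn lanosterol into cholesterol, Cyp51, the lanosterol demethylase, stood at 7.25 and 7.69 in deficient HSC and at 7.90 and 7.89 in wild type HSC, a difference of -0.42 (SE 0.19, adjusted p by limma = 0.805). The groups did not overlap, and deficient pool 1, without which the difference was -0.20, was the lowest. The methylsterol oxidase Msmo1 had 6.96 and 7.88 in deficient HSC and 7.81 and 7.92 in wild type HSC. Its difference of -0.45 (SE 0.32) rested on deficient pool 1, since deficient pool 2 lay between the wild type pools, and without deficient pool 1 it was 0.012. In the desaturase Sc5d deficient pool 1 was the lowest and deficient pool 2 the highest of the 4, with 7.40 and 7.91 in deficient HSC and 7.89 and 7.87 in wild type HSC. Its difference of -0.22 (SE 0.21) was 0.033 without deficient pool 1. The sterol reductase Tm7sf2 differed by -0.19 (SE 0.20).

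The remaining late enzymes did not share a direction. The X-linked dehydrogenase Nsdhl had 8.30 and 8.09 in deficient HSC and 8.56 and 8.30 in wild type HSC, a difference of -0.24 (SE 0.17). The X-linked sterol isomerase Ebp had 9.55 and 8.96 in deficient HSC and 9.19 and 9.27 in wild type HSC, so that the deficient pools were the highest and the lowest of the 4. Deficient pool 1, where Ebp was highest, was also the pool with the lowest Eif2s3y, and the part of the pools' sex in these values was not tested. Dhcr7, the reductase of a last step, differed by 0.06 (SE 0.17).

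Hsd17b7, a ketosteroid reductase of the demethylation steps, had the highest difference of the 33 at 0.28 (SE 0.24). The pools of its brightest probe set overlapped, with 9.18 and 9.54 in deficient HSC and 8.83 and 9.34 in wild type HSC. The next brightest probe sets, at 7.57 and 7.73 in deficient HSC against 7.38 and 7.22 in wild type HSC (0.35, SE 0.16), and at 7.16 and 7.17 against 6.93 and 6.56 (0.42, SE 0.18), each had both deficient pools above both wild type pools. It was the member with the most probe sets clear of overlap in the upward direction, and the dimmest of its 4 was below 0 (-0.17, SE 0.28).

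As a list, the 17 sterol pathway genes had 11 below 0 and 6 above, with a median of -0.22, and 6 with both deficient pools below both wild type pools. The share so placed over all genes was 18.5%, or 26.5% at or above the median level, where 15 of the 17 lie. Pools of the same group differed by as much. Deficient pool 2 was above deficient pool 1 by a median of 0.26 (11 of 17 genes), and wild type pool 2 was above wild type pool 1 by 0.25 (14 of 17). The median between deficient pool 1 and wild type pool 2 was -0.46, with 15 of 17 genes lower in the deficient pool, and that between deficient pool 2 and wild type pool 1 was 0.024, with 8 of 17 lower. The median was -0.06 without deficient pool 1 and also -0.06 without wild type pool 2. The mitotic genes separated the same wild type pools in the opposite direction, with a median of -0.62 for wild type pool 2 minus wild type pool 1, and the part of this in the sterol values was not tested.

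**Figure D2:**
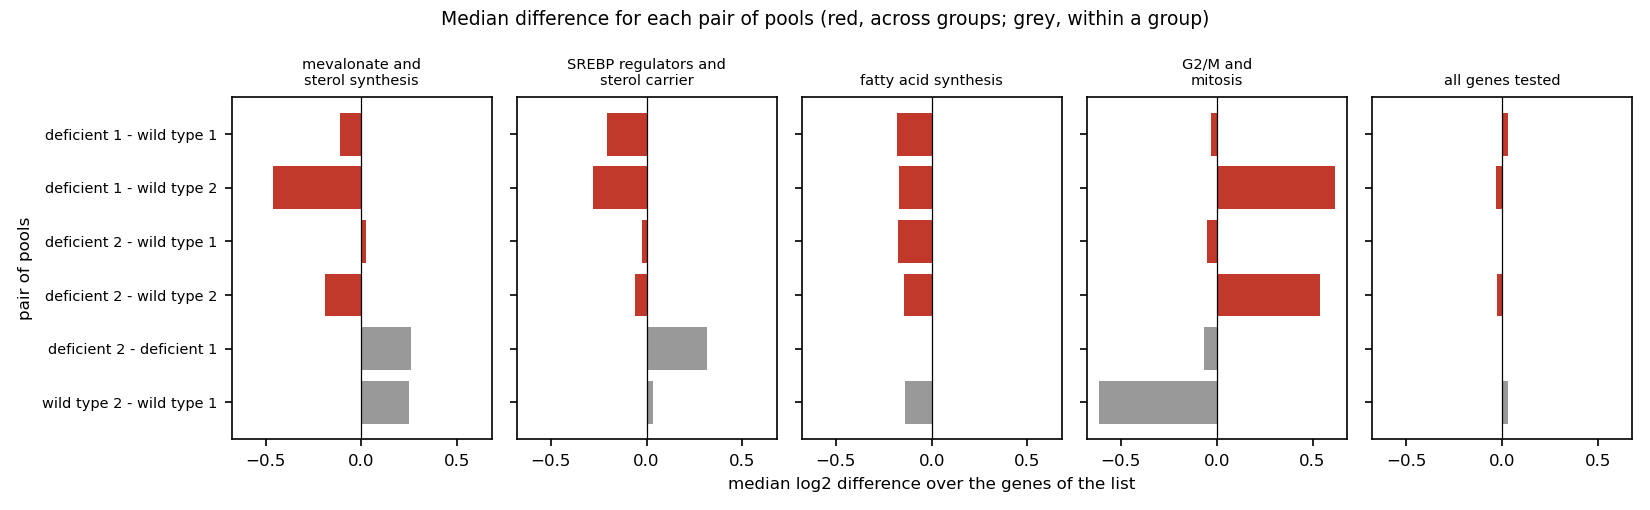
Median log2 difference over the genes of a list (horizontal axis) for each pair of pools (vertical axis), red for a deficient minus a wild type pool and grey for pools of the same group. For the sterol pathway the grey bars, at 0.26 and 0.25, are longer than 3 of the 4 red ones, while for fatty acid synthesis the red bars run only from -0.18 to -0.14.

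Promoter windows from RefSeq, on the GRCm38.p6 build and running from 250 bases before to 50 after a transcription start, were at hand for 27 of the 34 genes. They were searched on both strands for the SREBP-type sequence TCACNCCAC, the NF-Y sequence CCAAT, the Sp1 sequence GGGCGG and the E-box CACGTG. NF-Y and Sp1 are known to act beside SREBP at sterol-responsive promoters. CCAAT was present in at least 1 window of 22 of the 27 genes (81.5%), and of 14 of the 15 sterol pathway genes with a window (93.3%), against 42.0% of the 14452 genes with a window and an array value. GGGCGG was present for 23 of the 27 (85.2%) against 57.3%, and CACGTG for 5 (18.5%) against 10.2%. TCACNCCAC was present for 1 gene, Hmgcs1 (3.70%), against 1.46%. The 27 and the 15 include Acat2, which has no array value, unlike the genes they are set against. Its window held GGGCGG but not CCAAT. Genes with several windows are counted once, and base composition was not matched. A match is a description of letters and was not measured as a bound site.

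The windows below are those of the sterol pathway genes with both deficient pools below both wild type pools, where a window was at hand (Lss, Cyp51, Idi1 and Mvd), followed by that of Hmgcs1, which holds the SREBP-type match and whose deficient pools were not below. Hmgcs1 was picked for its match and the others for their values, so the windows do not compare promoters by expression. Other sterol pathway genes whose pools overlapped are not printed. Each reads 5′ to 3′ along the gene, and capitals mark every match to the 4 motifs, none of which overlapped another here. The windows are chr10:76531355-76531654 on the plus strand for Lss, chr5:4104648-4104947 on the minus strand for Cyp51, chr13:8885356-8885655 on the plus strand for Idi1, chr8:122443373-122443672 on the minus strand for Mvd and chr13:119690101-119690400 on the plus strand for Hmgcs1.
Lss: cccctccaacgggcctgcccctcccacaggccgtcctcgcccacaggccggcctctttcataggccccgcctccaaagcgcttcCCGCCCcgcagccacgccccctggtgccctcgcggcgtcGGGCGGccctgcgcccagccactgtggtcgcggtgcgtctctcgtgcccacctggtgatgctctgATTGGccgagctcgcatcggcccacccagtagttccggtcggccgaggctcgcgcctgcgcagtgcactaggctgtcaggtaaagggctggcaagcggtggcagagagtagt
Cyp51: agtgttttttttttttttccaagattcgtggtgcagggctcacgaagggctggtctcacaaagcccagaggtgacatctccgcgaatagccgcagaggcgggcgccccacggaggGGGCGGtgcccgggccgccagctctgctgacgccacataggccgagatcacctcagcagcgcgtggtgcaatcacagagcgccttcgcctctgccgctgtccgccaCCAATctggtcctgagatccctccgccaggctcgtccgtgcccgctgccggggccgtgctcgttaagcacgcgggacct
Idi1: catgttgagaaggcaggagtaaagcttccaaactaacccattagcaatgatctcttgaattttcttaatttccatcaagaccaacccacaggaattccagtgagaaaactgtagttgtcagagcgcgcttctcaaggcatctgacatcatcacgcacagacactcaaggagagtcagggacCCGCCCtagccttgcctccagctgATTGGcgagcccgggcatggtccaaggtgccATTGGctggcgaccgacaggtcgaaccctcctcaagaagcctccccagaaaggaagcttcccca
Mvd: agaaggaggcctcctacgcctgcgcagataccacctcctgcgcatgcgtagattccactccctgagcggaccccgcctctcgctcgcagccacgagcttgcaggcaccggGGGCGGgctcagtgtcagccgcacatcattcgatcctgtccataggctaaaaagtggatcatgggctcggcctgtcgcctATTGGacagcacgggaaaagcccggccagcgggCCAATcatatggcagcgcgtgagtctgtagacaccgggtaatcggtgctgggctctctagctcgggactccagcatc
Hmgcs1: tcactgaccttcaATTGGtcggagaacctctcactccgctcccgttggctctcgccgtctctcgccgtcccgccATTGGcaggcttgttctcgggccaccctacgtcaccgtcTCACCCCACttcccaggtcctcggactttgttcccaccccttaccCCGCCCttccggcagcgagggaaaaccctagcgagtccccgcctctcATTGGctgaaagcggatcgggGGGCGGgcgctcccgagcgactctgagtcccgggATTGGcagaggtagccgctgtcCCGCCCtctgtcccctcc

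Counting the start as position 1 with no position 0, the SREBP-type match of Hmgcs1, TCACCCCAC, began at -137, between CCAAT matches on the opposite strand at -176 and -45. Its window held 4 CCAAT and 3 GGGCGG matches in all. Lss held 1 CCAAT match, at -62, and 2 GGGCGG matches, Cyp51 held 1 of each, at -29 and -135, and Idi1 and Mvd each held 2 CCAAT matches and 1 GGGCGG match. Lss, Cyp51, Idi1, Mvd and Hmgcs1 therefore shared CCAAT and GGGCGG. Each of these motifs was found for 14 of the 15 sterol pathway genes with a window. Only Hmgcs1, which was picked for it, held the exact sequence TCACNCCAC within this window. Variants of TCACNCCAC were not searched for, so a window with no match is not shown to lack an SREBP site.

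The regulators of the pathway showed small differences, and none passed the test. Srebf1, which encodes the SREBP linked mainly to fatty acid synthesis, stood at 9.52 and 9.87 in deficient HSC and at 9.56 and 9.75 in wild type HSC, a difference of 0.043 (SE 0.19). Srebf2, which encodes the SREBP linked mainly to sterol synthesis, stood at 7.24 and 7.54 in deficient HSC and at 7.75 and 7.18 in wild type HSC, a difference of -0.08 (SE 0.24). Its pools overlapped fully, with the wild type pools at both ends. The 95% intervals, -0.43 to 0.51 for Srebf1 and -0.69 to 0.54 for Srebf2, do not show that either was unaltered.

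Scap, the escort protein that carries SREBP out of the endoplasmic reticulum, stood at 9.16 and 9.29 in deficient HSC and at 9.38 and 9.31 in wild type HSC (-0.12, SE 0.15). The highest deficient pool and the lowest wild type pool were nearly equal. Insig1, a retention protein that is itself an SREBP target, had 8.27 and 8.60 in deficient HSC and 8.26 and 8.94 in wild type HSC, a difference of -0.17 (SE 0.27) that turned to 0.17 without wild type pool 2. Insig2, the other retention protein, had 8.40 and 8.76 in deficient HSC and 8.97 and 8.87 in wild type HSC. Its groups did not overlap, and the difference was -0.34 (SE 0.18, adjusted p by limma = 0.821), or -0.16 without deficient pool 1. In its other probe sets the pools overlapped. The one nearly as bright gave -0.41 (SE 0.24), and the dimmest gave -0.025 (SE 0.14). Stard4, a cytosolic sterol carrier, differed by -0.15 (SE 0.16). Of these 6 genes 5 were below 0, with a median of -0.13, or -0.014 without deficient pool 1, and all 6 were higher in deficient pool 2 than in deficient pool 1, by a median of 0.32.

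Of the fatty acid synthesis genes none passed the test. The enzymes that supply and build the saturated chain are given first. ATP citrate lyase (Acly) stood at 12.34 and 12.37 in deficient HSC and at 12.36 and 12.21 in wild type HSC (0.07, SE 0.15). Acetyl-CoA synthetase (Acss2) differed by 0.06 (SE 0.22) and acetyl-CoA carboxylase (Acaca), at 8.65 and 8.59 in deficient HSC and 8.66 and 8.62 in wild type HSC, by -0.018 (SE 0.14). Fatty acid synthase (Fasn) stood at 8.89 and 9.09 in deficient HSC and at 9.12 and 9.19 in wild type HSC, a difference of -0.17 (SE 0.15), and malic enzyme (Me1), a source of NADPH, differed by -0.16 (SE 0.16).

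The desaturases put double bonds into the chain. Scd2, a stearoyl-CoA desaturase, stood at 11.65 and 11.62 in deficient HSC and at 12.37 and 11.84 in wild type HSC. The groups did not overlap, and it was 1.39-fold lower (log2 difference -0.47, SE 0.22, 95% interval -1.02 to 0.07, adjusted p by limma = 0.802). The difference was -0.21 without wild type pool 1 and -0.74 without wild type pool 2. Its paralog Scd1 had 6.15 and 5.92 in deficient HSC and 6.51 and 6.31 in wild type HSC (-0.38, SE 0.17). Fads1, the delta-5 desaturase of polyunsaturated fatty acids, had 9.22 and 9.74 in deficient HSC and 10.02 and 9.81 in wild type HSC (-0.43, SE 0.22), with deficient pool 2 just under wild type pool 2, and differed by -0.17 without deficient pool 1. Fads2, the desaturase that acts before it, had 8.01 and 8.28 in deficient HSC and 9.09 and 8.18 in wild type HSC. Its difference of -0.49 (SE 0.32) rested on wild type pool 1, and was -0.042 without it. Elovl6, which lengthens saturated chains, had 10.02 and 10.08 in deficient HSC and 9.92 and 10.79 in wild type HSC, so its difference of -0.31 (SE 0.30) rested on wild type pool 2 and turned to 0.13 without it.

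As a list, the fatty acid genes had 8 of 10 below 0, a median of -0.24, and 5 with both deficient pools below both wild type pools. At or above the median level, where 8 of the 10 lie, 63.6% of all genes were below 0 and 26.5% had both deficient pools below, against 18.5% at all levels. The medians of the 4 pairs of a deficient and a wild type pool lay close together, from -0.18 to -0.14. Deficient pool 2 was above deficient pool 1 by a median of 0.00107 and wild type pool 2 minus wild type pool 1 had a median of -0.14.

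**Figure D3:**
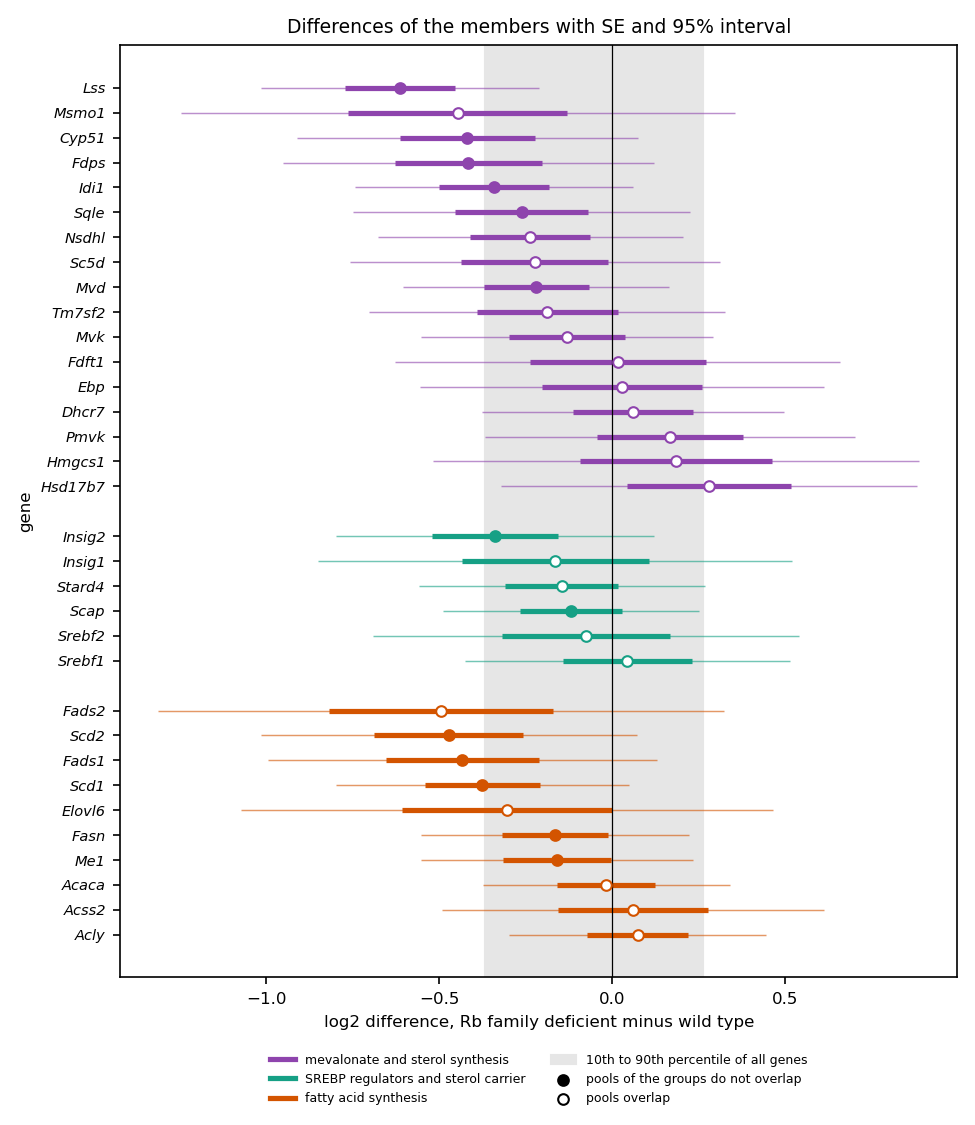
Log2 difference, Rb family deficient minus wild type (horizontal axis), for each member (vertical axis), with thick bars for the SE and thin bars for the 95% interval from limma, filled points where the pools of the groups do not overlap, and grey shading from the 10th to the 90th percentile of all genes (-0.37 to 0.26). All 13 filled points lie left of 0, and the thin bar of Lss is the only one that leaves out 0.

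The probe sets of a gene did not always give the same picture. Of the 33 members 24 had several probe sets. In 12 of the 24 every probe set was below 0, in 0 every one was above, and in 12 both signs were found. The same shares were not counted over all genes with several probe sets. Some of the probe sets were very dim, such as the dimmer one of Fdps (-0.022 at a mean level of 3.18). Over the 44 probe sets that were not the brightest of their gene, 30 were below 0 (68.2%), with a median of -0.14, where 49.1% of all 34945 probe sets with 1 gene symbol were below 0.

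For Hmgcs1 the brightest probe set was above 0 and all 4 dimmer ones were below, from -0.31 to -0.07. Acly had 3 of its 6 probe sets below 0 and Fdft1 had 1 of its 4. Names with no added letter mark probe sets designed to match 1 transcript or gene alone, and are called plain here. For Acly the brighter plain probe sets stood at 8.77 and 9.12 in deficient HSC and 9.47 and 9.17 in wild type HSC (-0.38, SE 0.20), and at 5.89 and 5.77 against 6.46 and 6.08 (-0.44, SE 0.19), with no overlap in either. The dimmest plain probe set of Acly gave 0.00691. Its other probe sets with an x gave 0.017 and -0.025, at very low mean levels of 2.97 and 2.96. For Fdft1 the brighter plain probe set stood at 7.15 and 7.22 in deficient HSC and 7.71 and 7.38 in wild type HSC (-0.36, SE 0.17), the dimmer one gave 0.09 (SE 0.21), and the other with an x gave 0.17 (SE 0.19). The brightest probe sets of Acly and Fdft1 have names with an x, used for probes that can hybridise to other transcripts.

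The reverse was seen as well. The dimmest Elovl6 probe set stood at 7.47 and 7.62 in deficient HSC and at 6.64 and 6.93 in wild type HSC (0.76, SE 0.17), clear of overlap and opposite to the brighter ones. The dimmer Fads1 probe set had 7.71 and 7.54 in deficient HSC and 7.51 and 6.70 in wild type HSC (0.52, SE 0.29). Where these probes lie in their transcripts was not known here. Of the 22 members represented by a probe set with a plain name, 20 were below 0, with a median of -0.23, and of the 11 represented by one with an a, s or x in its name 4 were below 0, with a median of 0.043. Over all genes the shares below 0 were 49.97% and 54.0%. This division was made after the values were seen. It takes the letters a, s and x together, so it does not divide probe sets by whether they can hybridise to other genes.

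**Figure D4:**
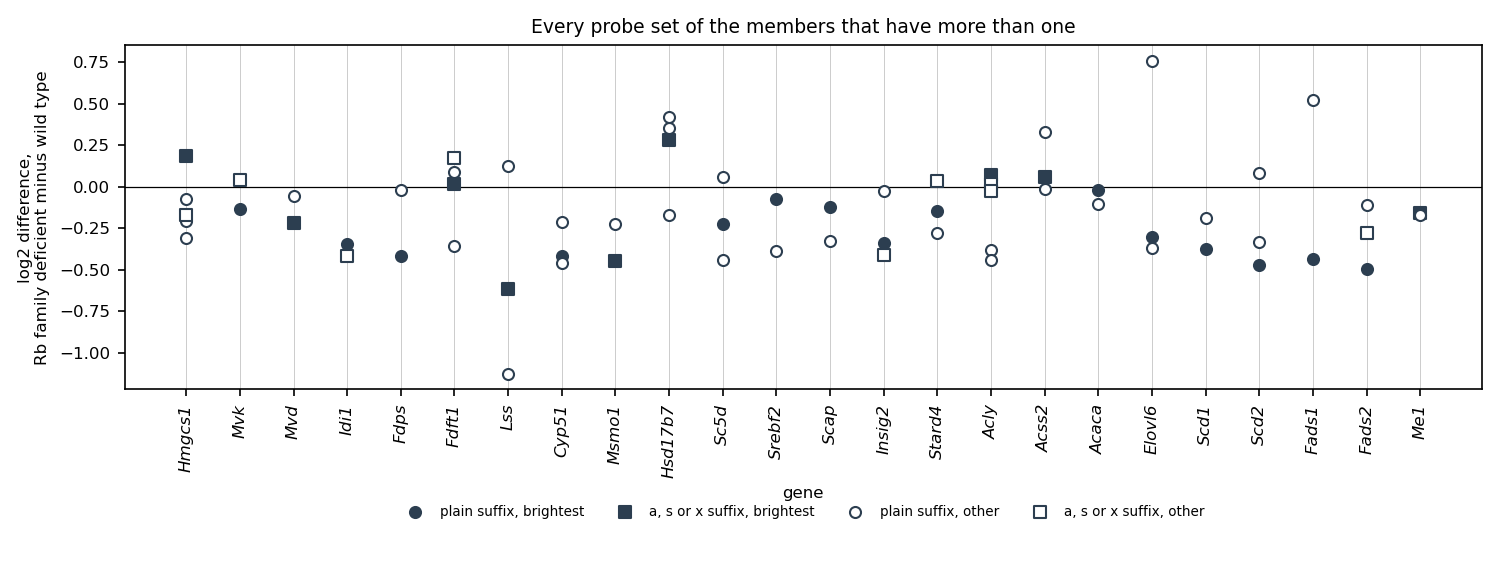
Log2 difference, Rb family deficient minus wild type (vertical axis), of every probe set of the 24 members that have several (horizontal axis), filled for the brightest of a gene, circles for plain names and squares for names with an a, s or x. The Elovl6 point at 0.76 and the Lss point at -1.12 are the extremes, and the Acly and Hmgcs1 filled squares lie above most of their other points.

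Genes around these pathways, from lists that are not members, also gave 0 calls by limma over all genes. Other fatty acid and glycerolipid genes were evenly divided, 10 below 0 and 11 above, with a median of 0.00308 that took either sign between alternatives. Dgat2, which makes triglyceride in the last step of storage, was higher in both deficient pools, at 7.40 and 7.03 in deficient HSC and 6.42 and 6.13 in wild type HSC (0.94, SE 0.20, adjusted p by limma = 0.761), with no overlap. It was the only one of the 21 higher at an unadjusted limma p under 0.05, against 2.19% of all genes. In 3 of the 21 both deficient pools were above both wild type pools and in 4 they were below, against 17% and 18.5% of all genes. The mitochondrial fatty acid synthase gene Oxsm was at 6.32 and 7.16 in deficient HSC and 8.11 and 7.31 in wild type HSC (-0.96, SE 0.38). Lpin1, a phosphatidate phosphatase, was at 7.38 and 7.22 in deficient HSC and 7.53 and 7.90 in wild type HSC (-0.41, SE 0.19).

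Genes that process or turn over SREBP had 7 of 8 below 0 with a median of -0.17. They included Mbtps1, the protease that makes the first SREBP cut (-0.26, SE 0.16), and the ubiquitin ligase gene Rnf139 (-0.32, SE 0.16) and Erlin2 (-0.38, SE 0.20), each with both deficient pools below both wild type pools. This order was seen in 4 of the 8 and the reverse in 0, against 18.5% and 17% of all genes. At or above the median level, where 6 of the 8 lie, the share below was 26.5%. Genes that use isoprenoids had 11 of 15 below 0 with a median of -0.11, and those with the lowest p-values were the ubiquinone synthesis genes Pdss2 (-0.49, SE 0.21) and Coq2 (-0.35, SE 0.18) and the dolichol kinase gene Dolk (-0.27, SE 0.15). In 4 of the 15 both deficient pools were below both wild type pools and in 2 they were above, against 18.5% and 17% of all genes. At or above the median level, where all 15 lie, the share below was 26.5%. Fatty acid oxidation genes had 16 of 21 below 0 with a median of -0.15, or 0.029 without wild type pool 2, with Echs1, the enoyl-CoA hydratase, at -0.53 (SE 0.24) and Acadm, a medium-chain dehydrogenase, at -0.30 (SE 0.15), and Etfdh at -0.33 (SE 0.18). Genes of LXR signalling and sterol transport had 10 of 18 below 0, a median of -0.05 (0.00615 with median centring), and at the upper end the nuclear receptor gene Rxra, at 7.33 and 7.19 in deficient HSC and 6.78 and 6.89 in wild type HSC (0.42, SE 0.15), with Abcg4 at 0.32 (SE 0.14) and Gramd1b at -0.36 (SE 0.15). Most genes of these lists are bright, and 63.6% of all genes at or above the median level were below 0. No test of a difference between lists was made.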

How the data were processed

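The deposited values are on the log2 scale. The tools RMA and limma appear, without version, per the submitters' processing notes. RMA as a method includes quantile normalization, which hides any shift in RNA content shared by all genes, and it compresses differences of dim probe sets. Of 45101 probe sets, 34945 had exactly 1 gene symbol in the platform annotation, 932 had several, 64 were controls and 9160 had none listed. Symbols were updated through Entrez gene IDs with a RefSeq table of GRCm38.p6 (34741 matched). Per gene the probe set with the highest mean was used, giving 18193 genes, with no filter on dim genes.

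Differences, SEs, intervals and p-values are from limma 3.58.1 in R 4.3.3 (lmFit, eBayes, no block), fitted on all 4 arrays and all genes with Benjamini-Hochberg adjustment. Probe set values are from the same fit over all 34945 probe sets. The fit was tested on simulated data. Groups came from sample titles. Nothing states that the pools share no mouse, so p-values measure the spread between these pools, and with 2 pools a group the number of arrays limits precision. An exact permutation test of 2 against 2 pools cannot go below p = 0.333. Members and lists were chosen with earlier results of these data known. Named genes are all members and, of other lists, up to 3 with the lowest p. List genes with no value were left out of the counts. The alternatives tried were a replicate block, leaving out each pool, other probe set choices, median centring, a filter on dim genes and other eBayes settings.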

Additional observations from a re-analysis of the deposited data

How the results depend on the processing

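No member and no gene passed an adjusted p of 0.05 under any of the 11 alternatives. The lowest adjusted p of a member in any of them was 0.458. The medians of the 3 member lists stayed below 0 under each alternative. With a pool left out they ran from -0.27 to -0.06 for sterol synthesis, -0.25 to -0.014 for the regulators and -0.26 to -0.18 for fatty acid synthesis.

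Counts at an unadjusted p under 0.05 were less stable. Over all genes 735 were lower and 399 higher. With a pool left out these counts ran from 317 to 1082 and from 244 to 689. The extremes came without deficient pool 1 (317 and 244) and without wild type pool 2 (1082 and 689). They were 408 and 176 without dim genes, where 9097 genes were tested, and 530 and 601 with median centring. The lower member count of 1 ran from 0 (without deficient pool 1) to 3 with a pool left out. It was 0 with plain-named probe sets first and 2 with the mean of probe sets. The replicate numbers are shared only as numbers. Over all genes the pool 2 minus pool 1 differences of the groups correlated at r = -0.19. With the replicate block 457 genes were lower and 281 higher, and with the crossed replicate block, added after seeing the data, 1151 were lower and 518 higher, with 2 members lower.

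The sign held under every alternative for 16 of the 33 members and turned for 17 under at least 1. With plain-named probe sets first, the difference was -0.20 for Hmgcs1, -0.36 for Fdft1, 0.12 for Lss, -0.38 for Acly and -0.012 for Acss2. With the mean of probe sets it was -0.11 for Hmgcs1, -0.020 for Fdft1, -0.12 for Acly, 0.028 for Elovl6 and 0.044 for Fads1, and with median centring 0.037 for Acaca. With a pool left out, differences ran from -0.16 to 0.52 for Hmgcs1, -0.090 to 0.42 for Pmvk, -0.27 to 0.30 for Fdft1, -0.39 to 0.015 for Tm7sf2, -0.91 to 0.012 for Msmo1, -0.27 to 0.32 for Ebp, -0.48 to 0.033 for Sc5d, -0.10 to 0.22 for Dhcr7, -0.13 to 0.22 for Srebf1, -0.36 to 0.21 for Srebf2, -0.50 to 0.17 for Insig1, -0.00121 to 0.15 for Acly, -0.21 to 0.33 for Acss2, -0.047 to 0.012 for Acaca and -0.74 to 0.13 for Elovl6. Beyond the pool or probe sets changed, the cause was not tested.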
